A study of Mus musculus with 6 samples.

Results

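DNA damage sensing and repair genes were examined in the lens of newborn mice. The members were 55 genes chosen by name, from the kinases that respond to broken DNA to the enzymes of each main repair pathway, and they were matched by gene symbol to the table of 13931 genes deposited for these lenses. Of the 55 genes, 54 were found in the table and 53 had values of their own. Rnf8 was not analysed here. The row of Pms2 (ENSMUSG00000079109) held, in all 6 libraries, the same values as the row of another identifier (ENSMUSG00000075569), while its average log2 CPM of 3.20 did not match the 5.10 given by those values. Pms2 was therefore not tested, and 4 such rows in all were left out, which left 13927 genes.

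RNA was sequenced from 3 control and 3 Celf1cKO lens libraries at postnatal day 0 (P0), each made from a pool of a pair of lenses. Celf1cKO mice carried 1 germline knockout allele of Celf1 (Celf1lacZKI), 1 allele whose exon 5 is flanked by loxP sites (Celf1flox) and the Cre line Pax6GFPCre, which becomes active in the lens placode and also in the pancreatic lineage. Control lenses are labelled Celf1lacZKI/+, in which case the controls also lacked 1 functional copy of Celf1, whereas the methods describe the usual controls as Celf1flox animals that carry no Cre. Which of these the controls were was not settled. Both groups were of mixed C57BL/6 and FVB background, and p-values measured the spread between these pools. Values are the deposited log2 CPM, that is the log2 of a gene's reads scaled to the size of the library (CPM), and differences are log2 fold-changes, Celf1cKO minus control.

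DNA is damaged by normal metabolism, by replication and by light, and each kind of lesion has its own repair route. The kinases ATM and ATR sense breaks and stalled replication forks and signal to p53 and to the cell cycle. Breaks through the whole helix are mended by homologous recombination or end joining, damaged bases by base excision repair, bulky and ultraviolet lesions by nucleotide excision repair, replication errors by mismatch repair, and crosslinks between strands by the Fanconi anaemia pathway. In the lens, epithelial cells at the anterior surface divide, whereas fiber cells leave the cell cycle and later degrade their nuclei, a step that needs the nuclease DNase IIβ. CELF1 is an RNA-binding protein that binds GU-rich elements, often in 3′ untranslated regions (3′UTRs), and is known for promoting mRNA decay and regulating splicing and translation.

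The libraries held 40694454 to 44387151 counted reads. Celf1 was lower in every Celf1cKO library (8.93, 7.66 and 7.83) than in every control library (9.95, 9.94 and 9.34), with a log2 fold-change of -1.6 (SE 0.34, adjusted p = 0.0269, limma). The 11 lens fiber markers in the table summed to 149179 to 176936 CPM in the controls and 116823 to 127396 CPM in Celf1cKO. Both groups thus carried a strong fiber signature, but every Celf1cKO sum lay below every control sum. Of the 11 markers, 9 had a lower mean in Celf1cKO, against 7461 of all 13927 genes tested. Control library 3 and Celf1cKO library 2 stood apart from the others. Control library 3 had the highest sum of 27 replication and mitosis genes, 508.8 CPM, against 311.5 and 343.4 CPM in the other controls and 207.7 to 315.3 CPM in Celf1cKO. It also had the highest sum of the 5 of 8 retina and pigment epithelium markers in the table, 24.6 CPM against 1.45 and 8.69 CPM in the other controls and 4.91 to 18.2 CPM in Celf1cKO. In Celf1cKO library 2 the 8 lens epithelium markers summed to 202.0 CPM, against 539.6 and 410.0 CPM in the other Celf1cKO libraries and 641.1 to 681.1 CPM in the controls. The 6 vascular markers (22.7 CPM) and the 6 of 8 mesenchyme markers in the table (18.9 CPM) were also lowest there, against ranges of 90.1 to 114.8 CPM and 84.8 to 114.2 CPM in the controls. None of the markers of these 4 lists in the table was without reads in any library. The larger differences that depended on these libraries are also given without them.

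Of the 53 genes, 2 were called as differentially expressed. Ercc6, which encodes the CSB protein that couples repair to stalled transcription, was elevated in Celf1cKO lenses, and Fancd2, the central effector of the Fanconi anaemia pathway, was reduced. A call required an adjusted p below 0.05 (limma with Benjamini-Hochberg adjustment over all genes), a difference of more than 0.58 up or down on the log2 scale and, for the average expression, a log2 CPM over 1, and 45 of the 53 genes passed the expression threshold. Of all 13927 genes, 7.4% were called, 4.77% as elevated and 2.63% as reduced, beside which the 3.77% of the repair genes is not a share above the background. An adjusted p below 0.05 alone was reached by the same 2 genes, against 11.9% of all genes. With the replicate number as a block, 3 repair genes were called (Atm, Ercc6 and Fancd2), against 9.18% of all genes (5.43% elevated, 3.76% reduced), and 5 had an adjusted p below 0.05, against 15.2%. The median log2 fold-change of the repair genes was -0.09, and that of all genes was -0.03. Scaling the libraries by total counted reads shifted the median of expressed genes to 0.23 and that of the repair genes to 0.13.

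The direction of the differences is given here by pathway, and differences between pathways were not tested. Of 10 nucleotide excision repair genes, 9 had a higher mean in Celf1cKO (8 after median centring), whereas all 9 homologous recombination genes and all 3 Fanconi anaemia genes had a lower mean (6 and 3 under total-count scaling, and 8 and 3 without control library 3). Among all 13927 genes, 6466 had a higher and 7461 a lower mean. Every Celf1cKO library lay above every control library for 10 of the 53 genes, which was the case for 19.5% of all genes, and below every control library for 9, which was the case for 17% of all genes, so that the groups of 19 repair genes did not overlap against 36.5% of all genes. An unadjusted p below 0.05 was found for 14 repair genes (26.4%), against 29.9% of all genes.

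**Figure D1:**
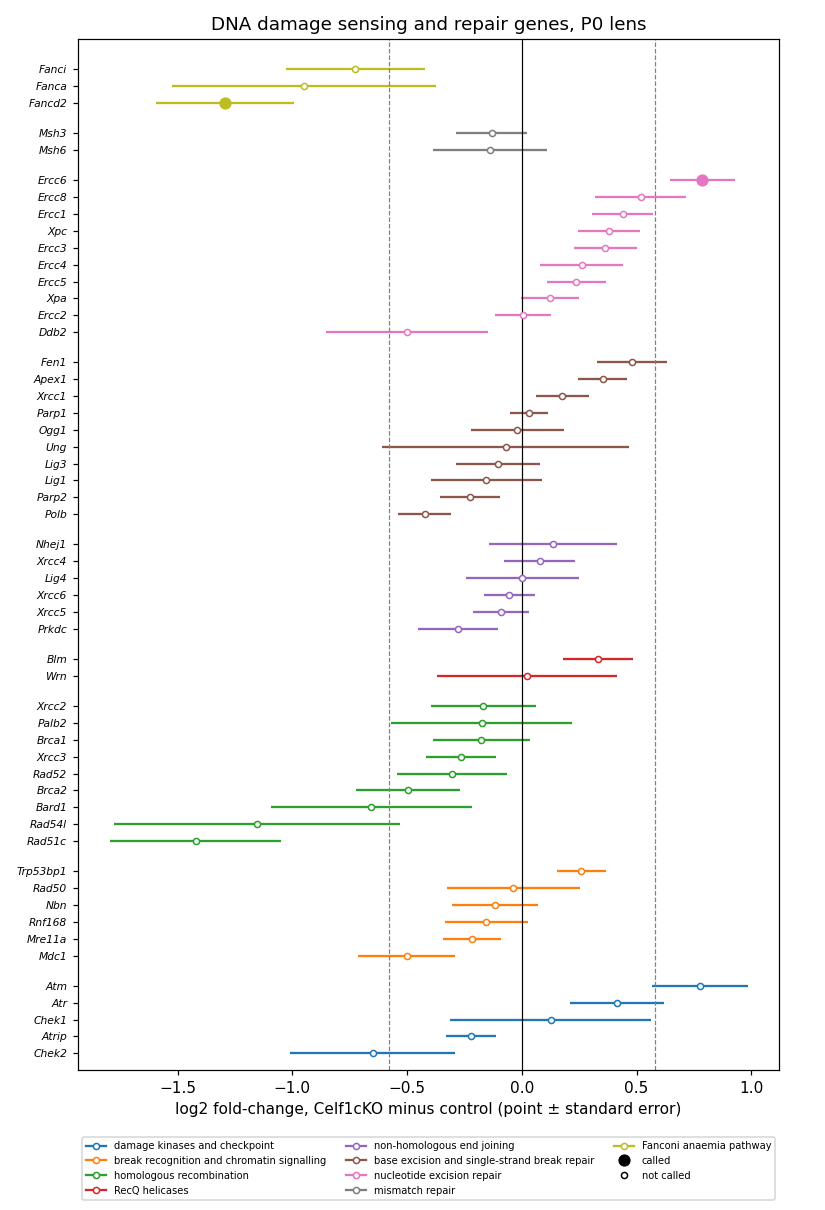
Log2 fold-change (Celf1cKO minus control, x axis) of each of the 53 repair genes, grouped by role, with the standard error from limma as the bar, filled points for called genes and dashed lines at 0.58 in each direction. Ercc6 (0.79) and Fancd2 (-1.29) are the filled points, the nucleotide excision repair genes lie mostly to the right of 0 and the homologous recombination genes to its left.

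Among the damage kinases and checkpoint genes, Atm encodes the kinase that is activated by broken DNA ends. Atm (ENSMUSG00000034218, GRCm38 chr9:53439149-53536740, minus strand) measured 3.90, 4.12 and 4.16 log2 CPM in the controls and 4.38, 5.21 and 4.91 in Celf1cKO. The groups did not overlap, and Celf1cKO library 1 lay closest to the controls. The log2 fold-change was 0.77 (SE 0.21), a 1.71-fold difference, with an adjusted p of 0.0544 (limma), just outside the threshold. With the replicate block the adjusted p was 0.0247, so that Atm was then called, and over all alternatives the adjusted p ranged from 0.00648 (without Celf1cKO library 1) to 0.174 (without Celf1cKO library 3).

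Atr, the kinase that responds to single-stranded DNA at stalled forks, had the highest log2 CPM of these genes before correction for length. It measured 4.21, 4.69 and 4.68 log2 CPM in the controls and 4.63, 5.31 and 4.89 in Celf1cKO, and the groups overlapped (log2 fold-change 0.41, SE 0.20, adjusted p = 0.219, limma, and 0.23 without Celf1cKO library 2). Its partner Atrip lay below every control in all Celf1cKO libraries, by a log2 fold-change of only -0.22 (SE 0.11). Atrip shares 16.0% of its exonic bases with Trex1 on the same strand, and Trex1 was not in the table. How reads on shared exons were counted was not given in the sources used here. The checkpoint kinase genes were expressed at a low level. Chek2, which acts downstream of ATM, was lower in every Celf1cKO library than in every control (log2 fold-change -0.65, SE 0.36), but 43 to 122 reads were counted per library and the adjusted p was 0.267 (limma). Without control library 3 the log2 fold-change of Chek2 was -0.36, and without Celf1cKO library 2 it was -0.39. Chek1, which acts downstream of ATR, had a log2 fold-change of 0.13 (SE 0.44) and was highest in control library 3 at 2.12, against 0.82 and 0.45 in the other controls.

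Genes that recognise breaks and mark the surrounding chromatin showed small differences. Trp53bp1, whose product 53BP1 steers breaks towards end joining, had the highest expression of all repair genes before correction for length. It measured 6.72, 6.54 and 6.85 log2 CPM in the controls and 6.89, 7.08 and 6.92 in Celf1cKO. All 3 Celf1cKO libraries lay above the controls, by a log2 fold-change of 0.26 (SE 0.11, adjusted p = 0.150, limma). Tubgcp4, which shares 15% of the exonic bases of Trp53bp1 on the other strand, had a log2 fold-change of -0.08.

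Mdc1 encodes the scaffold that reads the phosphorylated histone H2AX. It measured 3.62, 3.5 and 4.27 log2 CPM in the controls and 3.20, 3.30 and 3.39 in Celf1cKO. Each Celf1cKO library lay below each control, and control library 3 lay well above the other controls (log2 fold-change -0.50, SE 0.21, adjusted p = 0.164, limma, and -0.26 without control library 3). The MRN complex, which binds the broken ends, is made of the products of Mre11a, Rad50 and Nbn. Their log2 fold-changes were -0.22, -0.04 and -0.12, and of the 3 only Mre11a had groups that did not overlap. Rnf168, the ubiquitin ligase that recruits 53BP1, had a log2 fold-change of -0.15 (SE 0.18).

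**Figure D2:**
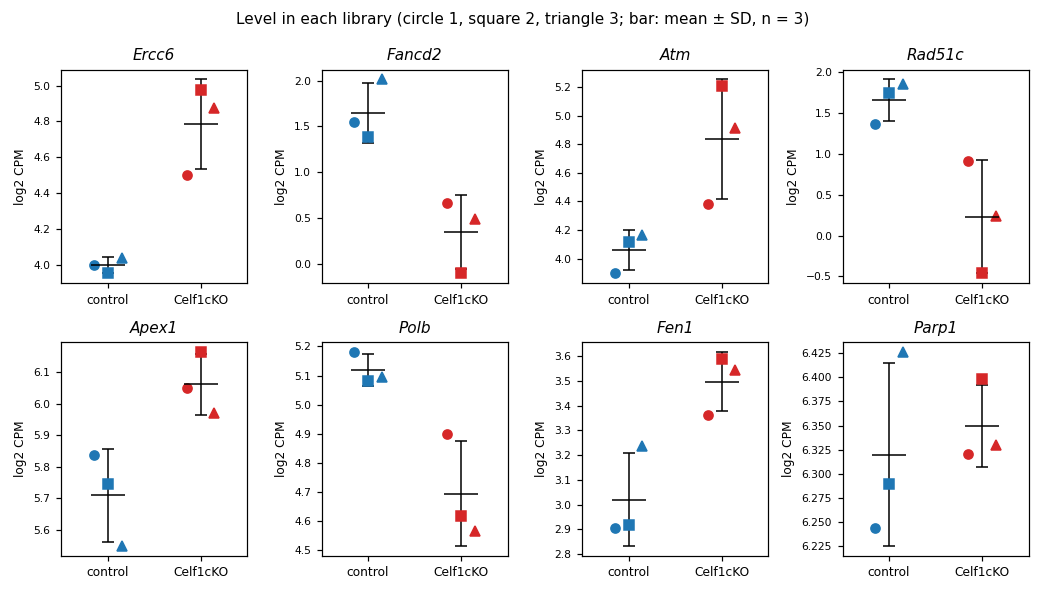
Log2 CPM (y axis, a separate scale in each panel that does not start at 0) of 8 repair genes in the 3 control (blue) and 3 Celf1cKO (red) libraries, with the mean and SD (n = 3) in black. The groups do not overlap for Ercc6, Fancd2, Atm, Rad51c, Apex1, Polb and Fen1, and they overlap for Parp1.

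Homologous recombination copies the lost sequence from the sister chromatid and works in dividing cells. All 9 genes had a lower mean in Celf1cKO, with a median log2 fold-change of -0.31 (-0.08 under total-count scaling, where Brca1, Palb2 and Xrcc2 had a higher mean). Rad51c, a gene of the strand exchange step, had the largest difference among all 53 genes. Rad51c (ENSMUSG00000007646, chr11:87376645-87404954, minus strand) measured 1.37, 1.75 and 1.85 log2 CPM in the controls and 0.92, -0.46 and 0.24 in Celf1cKO. The groups did not overlap, and Celf1cKO library 2 was lowest, with 33 reads against at most 140 in a control. The log2 fold-change was -1.42 (SE 0.37), 0.373 of the control level, with an adjusted p of 0.0505 (limma), which narrowly missed the threshold. The gene was called with limma voom (adjusted p = 0.0429) and under log2(CPM + 1), median centring, quantile normalization and adjustment over expressed genes, and its adjusted p ranged over all alternatives from 0.0127 (without Celf1cKO library 1) to 0.154 (without Celf1cKO library 3).

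Brca1, which promotes the resection of broken ends, had the highest log2 CPM of this pathway before correction for length. It measured 3.09, 2.74 and 3.43 log2 CPM in the controls and 3.13, 2.84 and 2.76 in Celf1cKO, and the groups overlapped (log2 fold-change -0.18, SE 0.21, adjusted p = 0.613, limma). Its partner Bard1 had a log2 fold-change of -0.66 (SE 0.44), which was -0.23 without control library 3. Brca2, which acts in strand exchange, and Palb2, which links BRCA1 to BRCA2, had log2 fold-changes of -0.50 (SE 0.23) and -0.17 (SE 0.39). Rad54l, a motor protein of strand exchange, had a log2 fold-change of -1.15 with an SE of 0.62, and control library 3 stood at 2.28 and the other controls at 0.29 and 0.27. Without control library 3 the log2 fold-change of Rad54l was -0.48, and without Celf1cKO library 2 it was -0.75. Among the remaining genes Xrcc3 lay below every control in all Celf1cKO libraries (log2 fold-change -0.26, SE 0.15), and Rad52 and Xrcc2 had log2 fold-changes of -0.31 (SE 0.24) and -0.17 (SE 0.23).

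Control library 3 was the highest of the 6 libraries for 6 of the 9 homologous recombination genes and for all 3 Fanconi anaemia genes. In all it was the highest for 21 of the 53 repair genes, a larger share than the 3022 of all 13927 genes (21.7%). Celf1cKO library 2 was the lowest for 11 of the 53, a smaller share than the 3500 of all genes (25.1%). Both held for 8 of the 53, a larger share than the 1314 of all genes (9.43%). The sum of replication and mitosis genes was highest in control library 3 and lowest in Celf1cKO library 2. That of retina markers was highest in control library 3 (24.6 CPM), followed by Celf1cKO library 3 (18.2 CPM). The sum of lens epithelium markers was lowest in Celf1cKO library 2. The part of these sums in the levels of the repair genes was not tested. Without control library 3 the log2 fold-change of Rad51c was -1.32 and that of Fancd2 -1.11, and the median over the 53 genes was -0.01. Without Celf1cKO library 2 both genes were at -1.07. In whole lenses, fewer dividing cells and less RNA per cell cannot be told apart.

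**Figure D3:**
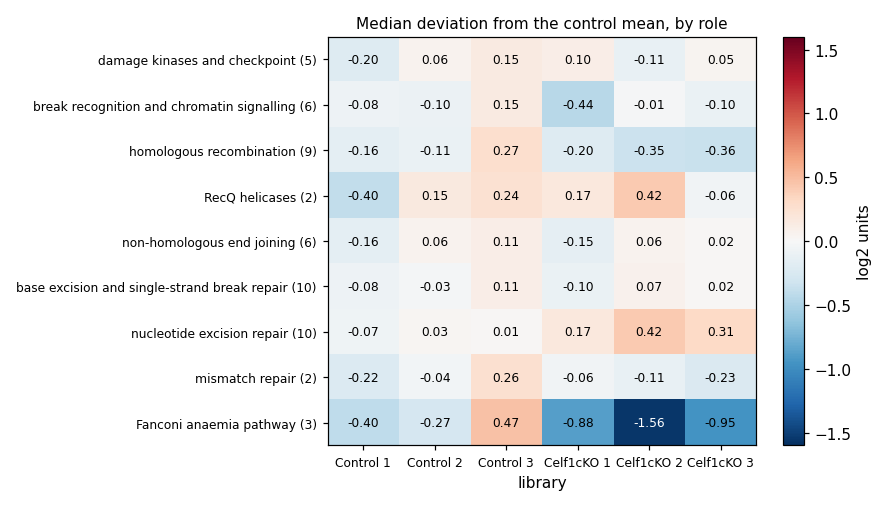
Median deviation of the genes of each role from their control means (log2 units, colour and printed value) in each library, with the number of genes in brackets. Control 3 is highest of the controls for homologous recombination (0.27) and the Fanconi anaemia pathway (0.47), and the nucleotide excision repair row is at 0.17, 0.42 and 0.31 in the Celf1cKO libraries.

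The RecQ helicases Blm and Wrn unwind structures that form during recombination and replication. Blm measured 2.47, 2.43 and 2.57 log2 CPM in the controls and 2.96, 2.69 and 2.82 in Celf1cKO. Every Celf1cKO library lay above every control (log2 fold-change 0.33, SE 0.15, adjusted p = 0.192, limma). Wrn measured 1.89, 3.02 and 3.06 in the controls and 2.54, 3.28 and 2.21 in Celf1cKO, and its groups spread over the same range (log2 fold-change 0.02, SE 0.39).

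Non-homologous end joining rejoins broken ends directly and works throughout the cell cycle. Its 6 genes had log2 fold-changes from -0.28 to 0.14, the narrowest range among the roles with 5 or more genes, and overlapping groups for each gene. Prkdc, the catalytic subunit of the DNA-dependent protein kinase, had both the highest log2 CPM before correction for length and the largest difference. It measured 3.98, 4.39 and 4.57 log2 CPM in the controls and 3.93, 4.21 and 3.97 in Celf1cKO (log2 fold-change -0.28, SE 0.17, adjusted p = 0.322, limma, and -0.15 without control library 3). Xrcc6 and Xrcc5 encode the Ku70 and Ku80 proteins that cap the ends, and they had log2 fold-changes of -0.05 (SE 0.11) and -0.09 (SE 0.12). The ligase gene Lig4 and its cofactor genes Xrcc4 and Nhej1 had log2 fold-changes of 0.00 (SE 0.25), 0.08 (SE 0.15) and 0.14 (SE 0.28). The standard errors of these 6 genes, 0.11 to 0.28, limit the differences that could be detected.

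Base excision repair removes oxidised, alkylated or deaminated bases, and of its 10 genes 4 had a higher and 6 a lower mean in Celf1cKO. Fen1 encodes the nuclease that trims displaced flaps. It measured 2.90, 2.92 and 3.24 log2 CPM in the controls and 3.36, 3.59 and 3.54 in Celf1cKO. The groups did not overlap (log2 fold-change 0.48, SE 0.15, adjusted p = 0.0836, limma). An antisense gene, Gm10143, covers 78.8% of the exonic bases of Fen1, and the strand setting used for counting was not given in the sources used here.

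Apex1, the endonuclease that cuts at sites without a base, measured 5.84, 5.74 and 5.55 log2 CPM in the controls and 6.05, 6.16 and 5.97 in Celf1cKO. All Celf1cKO libraries were higher than all controls (log2 fold-change 0.35, SE 0.10, adjusted p = 0.0710, limma, and 0.0494 with the replicate block, with a range of 0.00878 to 0.222 over all alternatives). Pip4p1, which lies on the other strand and shares 61.7% of the exonic bases of Apex1, had a log2 fold-change of 0.47. Polb, the polymerase that fills the gap, went the other way, at 5.18, 5.08 and 5.09 in the controls and 4.90, 4.62 and 4.57 in Celf1cKO. The log2 fold-change of Polb was -0.42 (SE 0.12, adjusted p = 0.0568, limma, and 0.0424 with the replicate block, with a range of 0.0128 to 0.240 over all alternatives). Thus genes of consecutive steps of the same pathway had differences of opposite sign, each below the fold-change threshold.

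Parp1, the sensor of single-strand breaks, was the most highly expressed gene of this pathway before correction for length. It measured 6.24, 6.29 and 6.43 log2 CPM in the controls and 6.32, 6.40 and 6.33 in Celf1cKO, and the groups overlapped with a log2 fold-change of 0.03 (SE 0.08, adjusted p = 0.842, limma). Parp2 had a log2 fold-change of -0.22 (SE 0.13) and Xrcc1, the scaffold that PARP activity recruits, one of 0.18 (SE 0.12). The glycosylase genes Ogg1, for oxidised guanine, and Ung, for uracil, had log2 fold-changes of -0.02 (SE 0.20) and -0.07 (SE 0.54). Ung stood at 1.84 in control library 3 and at -0.06 and -0.23 in the other controls, and its log2 fold-change was 0.59 without that library. The ligase genes Lig1 and Lig3 had log2 fold-changes of -0.16 (SE 0.24) and -0.10 (SE 0.18), and Rffl, which shares 25.1% of the exonic bases of Lig3 on the other strand, had one of -1.47.

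Nucleotide excision repair cuts out a stretch of the damaged strand, and most of its genes had a higher mean in Celf1cKO. Its 10 genes had a median log2 fold-change of 0.31 (0.54 under total-count scaling), against -0.03 for all genes (0.19 under total-count scaling). For 5 of them, Xpc, Ercc1, Ercc3, Ercc6 and Ercc8, every Celf1cKO library lay above every control, which was the case for 19.5% of all genes. These 5 were also the ones with an unadjusted p below 0.05, which 16.3% of all genes reached in this direction. Ercc6 and Ercc8 encode the CSB and CSA proteins, which start repair where an RNA polymerase has stalled at a lesion.

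Ercc6 (ENSMUSG00000054051, chr14:32513521-32580990, plus strand) measured 4.0, 3.95 and 4.04 log2 CPM in the controls and 4.50, 4.98 and 4.88 in Celf1cKO. The controls lay within a narrow range (SD 0.04, n = 3), and Celf1cKO library 1 lay nearest to them. The log2 fold-change was 0.79 (SE 0.14), a 1.73-fold elevation, with an adjusted p of 0.0187 (limma). Over all alternatives the log2 fold-change ranged from 0.69 to 1.01 and the adjusted p from 0.00343 to 0.0966. The call was lost without any library but Celf1cKO library 1, with adjusted p values of 0.0556, 0.0734 and 0.0558 without control libraries 1, 2 and 3 and 0.0573 and 0.0966 without Celf1cKO libraries 2 and 3, and without the variance trend (0.0509).

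The 3′UTR of Ercc6 was searched for the letters of a GU-rich element, and binding by CELF1 was not measured here. The 3′UTR of the Ercc6 transcript with the longest coding sequence is 3888 bases long and holds TGTTTGT at 5 positions, of which 4 overlap in a run that starts 546 bases after the stop codon. The isolated site and one of the run are written below as DNA from GENCODE M21, with the element in capitals.
Ercc6, chr14:32577297-32577325 (plus strand), 206 bases after the stop codon: ggtttttgtttTGTTTGTttggtggcact
Ercc6, chr14:32577641-32577669 (plus strand), 550 bases after the stop codon: gttttgttgttTGTTTGTttgtttgtttt

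Ercc8 measured 0.52 higher on the log2 scale in Celf1cKO (SE 0.20, adjusted p = 0.131, limma), and its 3′UTR also held the element at 2 positions. Ercc3, a helicase of the TFIIH complex and the gene of this pathway with the highest log2 CPM, measured 4.26, 4.36 and 4.36 log2 CPM in the controls and 4.43, 4.90 and 4.75 in Celf1cKO. Its log2 fold-change was 0.36 (SE 0.14, adjusted p = 0.129, limma). Xpc, which finds lesions across the genome, had a log2 fold-change of 0.38 (SE 0.14, adjusted p = 0.110), and Ercc1, the partner of the XPF nuclease, one of 0.44 (SE 0.13, adjusted p = 0.0729). The nuclease genes Ercc4 (XPF) and Ercc5 (XPG) had log2 fold-changes of 0.26 (SE 0.18, and 0.14 without control library 3) and 0.24 (SE 0.13), and Xpa, which verifies the lesion, one of 0.12 (SE 0.13). Ercc2, the other TFIIH helicase, did not share this direction clearly, at 0.01 (SE 0.12). Ddb2, which binds ultraviolet lesions in chromatin, was the exception, at -0.50 (SE 0.35), with control library 3 highest, and its log2 fold-change was -0.19 without that library and -0.27 without Celf1cKO library 2. Acp2, which shares 23.8% of the exonic bases of Ddb2 on the other strand, had a log2 fold-change of -0.27 and an average log2 CPM of 4.74. Gm26852 and Klc3 share 24.6% and 17.8% of those of Ercc2, also on the other strand.

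For mismatch repair, Msh6 and Msh3, which encode subunits of the complexes that recognise mismatches, were measured. Msh6 stood at 3.29, 3.49 and 4.23 log2 CPM in the controls and 3.41, 3.75 and 3.44 in Celf1cKO. The groups overlapped, and control library 3 alone was above 4 (log2 fold-change -0.14, SE 0.25, adjusted p = 0.749, limma). Msh3 had a log2 fold-change of -0.13 (SE 0.15).

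The Fanconi anaemia pathway unhooks crosslinks and protects stalled forks, and its core complex adds ubiquitin to the FANCD2 and FANCI proteins. All 3 genes were expressed at a low level and had a lower mean in Celf1cKO, with a median log2 fold-change of -0.95 (-0.73 under total-count scaling). Fancd2 (ENSMUSG00000034023, chr6:113531682-113597017, plus strand) measured 1.55, 1.38 and 2.01 log2 CPM in the controls and 0.66, -0.10 and 0.49 in Celf1cKO. The groups did not overlap, with the highest value in control library 3 and the lowest in Celf1cKO library 2, and the libraries held between 43 and 157 reads of the gene. The log2 fold-change was -1.29 (SE 0.30), 0.408 of the control level, with an adjusted p of 0.0361 (limma). Over all alternatives the log2 fold-change ranged from -1.45 to -0.87 and the adjusted p from 0.0231 to 0.116. As for Ercc6, the call was lost without any library but Celf1cKO library 1, with adjusted p values of 0.0900, 0.0833 and 0.103 without control libraries 1, 2 and 3 and 0.0925 and 0.116 without Celf1cKO libraries 2 and 3, and without the variance trend (0.0549).

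Fanci, the partner of FANCD2, lay below every control in all Celf1cKO libraries (log2 fold-change -0.72, SE 0.30, adjusted p = 0.161, limma). Fanca, of the core complex, had a log2 fold-change of -0.95 with an SE of 0.58, and control library 3 stood at 2.25 and the other controls at 0.59 and 0.20. Without control library 3 the log2 fold-change of Fanca was -0.33, that of Fanci -0.49 and the median of the 3 genes -0.49. The 3′UTR of Fancd2, the reduced gene, also holds the GU-rich element, at 1 position, shown with the element in capitals.
Fancd2, chr6:113596043-113596071 (plus strand), 95 bases after the stop codon: cagaagcatccTGTTTGTccatcaagaag

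**Figure D4:**
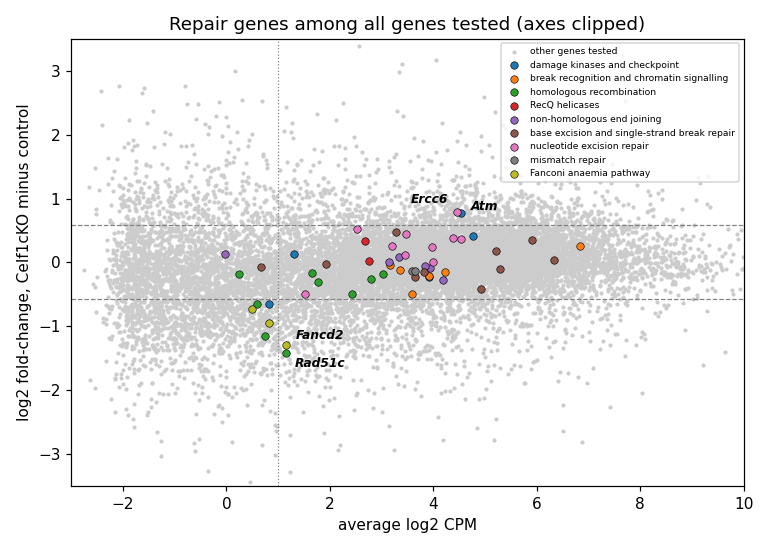
Log2 fold-change (y axis, clipped at -3.5 and 3.5) against average log2 CPM (x axis, clipped at 10) of all 13927 genes in grey and the 53 repair genes in the colours of their roles, with dashed lines at the fold-change threshold and a dotted line at the expression threshold. The repair genes with the largest reductions lie at the low end of expression, and Ercc6 and Atm lie at an average log2 CPM above 4.

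Other genes of the same pathways were examined from a list of 120 genes, 117 of which were in the table. In this list 1 gene was called as elevated and 1 as reduced, 1.71% of the list against the 7.4% of all genes, and 49 had a higher and 68 a lower mean. Hltf, which acts on stalled forks, measured 2.74, 2.79 and 2.82 log2 CPM in the controls and 3.15, 3.65 and 3.43 in Celf1cKO (log2 fold-change 0.63, SE 0.16, adjusted p = 0.0498, limma). Slx1b, a nuclease subunit that resolves branched DNA, measured 4.09, 4.27 and 3.09 in the controls and 2.51, 2.67 and 2.75 in Celf1cKO (log2 fold-change -1.17, SE 0.30, adjusted p = 0.0471, limma). Control library 3 lay closer to the Celf1cKO libraries than to the other controls for Slx1b. An adjusted p below 0.05 with a smaller difference was found for Swi5 (0.47), Cetn2 (0.38) and Ddb1 (0.30), among others, which were higher in Celf1cKO. The product of Cetn2 binds XPC, and DDB1 is the partner of DDB2, so that both genes belong to the recognition step of nucleotide excision repair. With the replicate block Poll, a polymerase of end joining, was also called (-0.73). With limma voom neither Hltf nor Slx1b was called, and the only gene called in the list was Rmi1. No gene of the list was called without control library 1 or 2 or Celf1cKO library 2 or 3.

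Genes that p53 activates were measured beside the kinases that signal to it. Of 22 such genes, 7 were called as elevated and 1 as reduced, 36.4% against the 7.4% of all genes. Among the called genes, those with the largest log2 fold-changes were Cdkn1a (5.42), the cell cycle inhibitor p21, Trp53inp1 (2.59), Phlda3 (1.82), Zmat3 (1.29) and Ccng1 (1.22), with adjusted p values of 0.00889, 0.00940, 0.0153, 0.00940 and 0.0141 (limma), and Mdm2 and Bax were the other elevated genes. Eda2r, a receptor gene, was at 3.79 (adjusted p = 0.0114) and missed the call by its average log2 CPM of 0.86. Sesn1 was reduced (-1.10, adjusted p = 0.0297). The rise of Cdkn1a in these mice was known before this list was made. The whole list was also chosen with earlier results of these data known. Neither the direction of Cdkn1a nor the share of calls in the list is therefore independent evidence. Of 27 replication and mitosis genes, 26 had a lower mean in Celf1cKO (22 under total-count scaling), with a median log2 fold-change of -0.59 (-0.30 without control library 3 and -0.39 without Celf1cKO library 2). By limma 0 of these 27 genes were called, 8 had an unadjusted p below 0.05, all lower, 2 (Rrm1 and Top2a) were called with the replicate block, and voom called 0.

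Levels of different genes were compared per length, as CPM per kb of merged exons in GENCODE M21. In the controls Apex1 had the highest level of the 53 genes, 36.9 CPM per kb (SD 3.70, n = 3), followed by Parp1 at 15.1 (SD 1.0), Polb at 8.81 (SD 0.34), Trp53bp1 at 7.39 (SD 0.80) and Ercc3 at 7.07 (SD 0.29). The spread of Apex1 did not reach that of Parp1, nor that of Parp1 that of Polb, whereas the spreads of Trp53bp1 and Ercc3 overlapped. At the low end were Ung (0.320, SD 0.282), Rad54l (0.310, SD 0.274), Fanci (0.299, SD 0.096), Fanca (0.276, SD 0.226) and Palb2 (0.171, SD 0.082), which cannot be ranked beyond their spread. Per length, Ercc6 stood at 1.24 in the controls and 2.16 in Celf1cKO, Atm at 1.61 and 2.83, Rad51c at 0.715 and 0.278, and Fancd2 at 0.395 and 0.159 CPM per kb. The 3 highest levels were thus those of base excision repair genes.

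**Figure D5:**
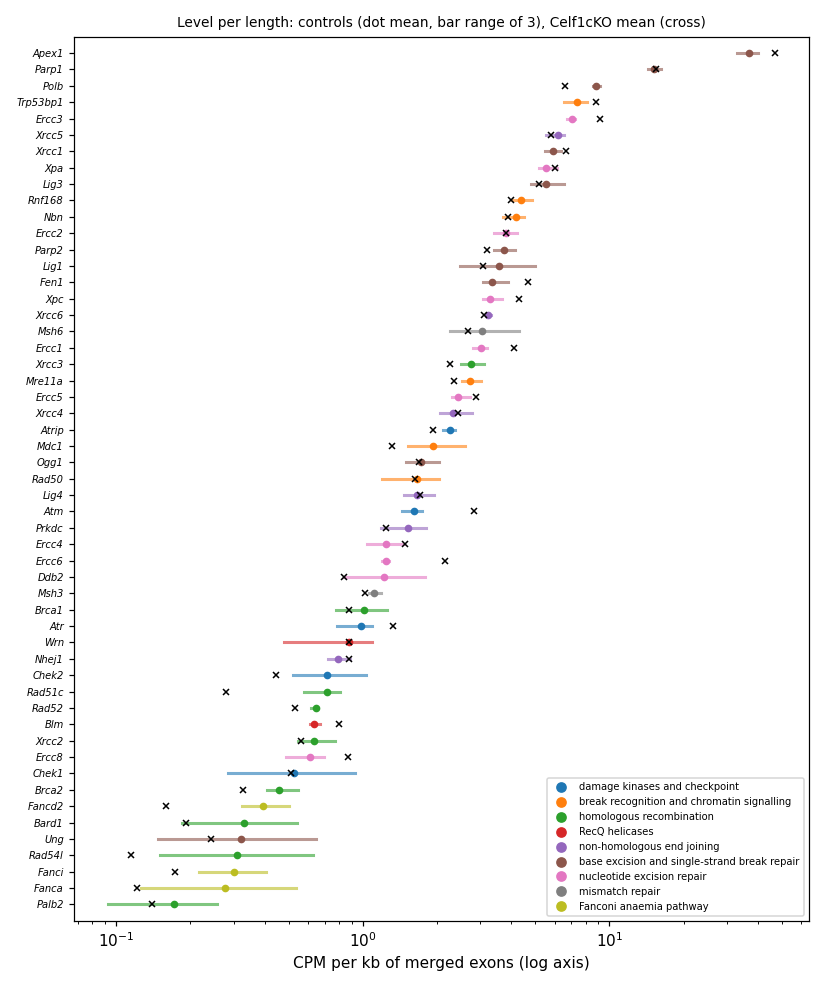
Level of each repair gene in CPM per kb of merged exons (x axis, log scale), with the control mean as a dot, the range of the 3 control libraries as a bar and the Celf1cKO mean as a cross. Apex1 is highest at 36.9 and Palb2 lowest at 0.171 in the controls, and the bars are widest for Rad54l, Fanca, Ung, Chek1 and other genes that were highest in control library 3.

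Promoters were searched for elements of genes that follow the cell cycle. Promoter windows of 300 bases (250 before and 50 after the start, RefSeq, GRCm38.p6) were found for 43 of the 53 genes. An E2F-type element, GGCGGGAA or GCGCGAAA on either strand, was held by 7 of these 43 genes (16.3%), namely Chek1, Lig1, Mdc1, Msh3, Msh6, Rad51c and Rnf168, against 5.24% of the 10827 tested genes with a window and 31.8% of 22 replication and mitosis genes. Genes with several windows were counted once where any held the element. These 7 genes come from 5 roles, and their log2 fold-changes ranged from -1.42 (Rad51c) to 0.13 (Chek1). The windows below, with the element in capitals on the strand of the gene, show where the letters lie in 6 of the 7 genes.
Rad51c, chr11:87404943-87404970 (minus strand): cccccgcgagGGCGGGAAaagcaagggg
Rad51c, chr11:87404478-87404505 (minus strand): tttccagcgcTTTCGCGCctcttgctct
Mdc1, chr17:35841473-35841500 (plus strand): ttcagcctgtTTCCCGCCggtagccgca
Msh6, chr17:87975056-87975083 (plus strand): cctcccgactTTCCCGCCagcggcggcc
Rnf168, chr16:32277414-32277441 (plus strand): tagcaggctaGGCGGGAAcgcagacgca
Lig1, chr7:13278842-13278869 (plus strand): gccaaagtgcGCGCGAAAtctgtgtggc
Msh3, chr13:92355184-92355211 (minus strand): gtcaagtttgGCGCGAAAtcgcagccct
The letters TTTGAA, another cell cycle element, were found on either strand in 3 of the 43 genes (6.98%), Bard1, Ercc5 and Fen1, against 14.3% of all. The windows of Atm and Ercc6 held neither element, which says only that these letters are not in those windows.

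The GU-rich element TGTTTGT was counted over the 3′UTRs of 52 of the 53 genes on the transcript strand. It was present in 8 (15.4%), Bard1, Blm, Ddb2, Ercc6, Ercc8, Fancd2, Parp1 and Rnf168, against 26.6% of 12936 genes. The median 3′UTR length of the repair genes was 407.5 bases and that of all genes 988 bases, and per kb of 3′UTR the element occurred 0.298 and 0.318 times. Among all genes, it was present in 42.8% of the 652 called as elevated and in 26.2% of the 344 called as reduced, whose median 3′UTR lengths were 1367 and 1290.5 bases. Of the 8 repair genes with a site, Ercc6, Ercc8 and Blm lay above every control in all Celf1cKO libraries, and Fancd2 lay below. The groups of Bard1, Ddb2, Parp1 and Rnf168 overlapped. Over all genes, 19.5% lay above and 17% below every control in this way, and 8 genes are too few to compare with these shares. Atm and Rad51c held no site.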

How the data were processed

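The authors trimmed strand-specific paired-end reads, aligned them to GRCm38.p6 with STAR 2.7.8a, kept uniquely mapped reads, counted them with featureCounts 2.0.0, removed genes of very low expression and normalized with edgeR. They deposited log2 CPM values for each library, with a small prior count, and an average log2 CPM, used here only for the expression threshold. The deposited log2 group means and log2 fold-changes, the F score and the p-value and FDR columns hold the authors' own comparison and were not used.

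Group differences were tested with limma 3.58.1 in R 4.3.3 (moderated by expression trend, no block) on the deposited log2 CPM of 13927 genes, with Benjamini-Hochberg adjustment over all of them. A log2 fold-change on this scale understates the change of genes with few reads. Whole reads were recovered from 100% of the values up to 1000 reads (tolerance 0.1 read), which gave 40694454 to 44387151 reads per library and allowed limma voom as an alternative. Deviations from the group means correlated at 0.30, 0.42 and 0.35 for libraries of the same replicate number, and at -0.39 to 0.03 for those of different numbers. Deviations within a group sum to 0, so these correlations are not independent and do not establish a pairing. The sources describe no pairing. The fit was repeated with the replicate block, without the variance trend, with robust moderation, on log2(CPM + 1), under 3 other scalings, with voom, with adjustment over expressed genes, at other thresholds and after leaving out single libraries.

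Members, roles and lists were chosen with earlier results of these data known. Each member was named, with all library values for called genes and, in each role, for the gene with the largest difference and the highest expression. Apex1 and Polb, the 4 rows left out, and the GU-rich element were singled out after the values were seen. The lists were read by counts and medians. Markers of cornea and skin (1 of 10 in the table, Krt4), red cells (1 of 6, Alas2) and macrophages (5 of 6) summed to at most 7.49 CPM in any library, and none was called by limma. Positions came from GENCODE M21, in which 13924 identifiers were found, and figures from matplotlib 3.10.9 in Python 3.11.15. The procedure was tested on simulated data. Reads were not analysed here, and intervals of counting error were not computed, since the spread between libraries was the error used. Some items are not reported here.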

Additional observations from a re-analysis of the deposited data

How the results depend on the processing

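The number of repair genes called, 2, became 0 without the variance trend, 8 under total-count scaling (Atm, Fen1, Xpc, Ercc1, Ercc3, Ercc6, Ercc8 and Fancd2), 4 with adjustment over expressed genes only and 4 at an adjusted p below 0.1, and it ranged from 0 to 4 when 1 library was left out. It was 0 without each of control libraries 1, 2 and 3 and Celf1cKO libraries 2 and 3, and 4 without Celf1cKO library 1, and without control library 2 or Celf1cKO library 3 only 1 gene of the whole table was called. The 2 genes with an adjusted p below 0.05 became 5 with the replicate block, 0 without the variance trend, 4 with median centring, 4 with quantile normalization, 12 with total-count scaling and 5 with adjustment over expressed genes only, with a range of 0 to 8 when 1 library was left out. The 2 other repair genes called became 0 without the variance trend, 1 under log2(CPM + 1), 6 under total-count scaling, 1 with limma voom and 4 with adjustment over expressed genes only, with a range of 0 to 7. The calls over all genes fell from 1030 to 421 without the variance trend and rose to 1867 under total-count scaling, where 89.1% were elevated against 64.5%. The median log2 fold-change of the repair genes, -0.0909, was 0.135 under total-count scaling, and its range was -0.167 to -0.00589 when 1 library was left out, the highest without control library 3.

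Among the 53 genes, the replicate block changed the call of Atm only, and among the 117 other repair genes that of Poll.

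Signs of log2 fold-changes near 0 turned. With median centring Wrn was at -0.00244, Lig4 at -0.022 and Ercc2 at -0.018. With quantile normalization Rad50 was at 0.00177, Palb2 at 0.13, Xrcc2 at 0.051, Parp1 at -0.048, Ogg1 at 0.16, Ung at 0.19 and Ercc2 at -0.00038. With total-count scaling Atrip was at 0.00388, Mre11a at 0.00734, Rad50 at 0.19, Nbn at 0.11, Rnf168 at 0.072, Brca1 at 0.049, Palb2 at 0.042, Xrcc2 at 0.054, Xrcc5 at 0.14, Xrcc6 at 0.17, Lig1 at 0.070, Lig3 at 0.12, Parp2 at 0.00053, Ogg1 at 0.20, Ung at 0.15, Msh3 at 0.093 and Msh6 at 0.087. With 1 library left out, the range was -0.21 to 0.62 for Chek1, -0.0685 to 0.0832 for Ercc2, -0.39 to 0.12 for Lig1, -0.20 to 0.079 for Lig3, -0.20 to 0.25 for Lig4, -0.33 to 0.14 for Msh6, -0.11 to 0.11 for Ogg1, -0.54 to 0.16 for Palb2, -0.00798 to 0.0828 for Parp1, -0.26 to 0.23 for Rad50, -0.28 to 0.0375 for Rnf168, -0.44 to 0.59 for Ung, -0.36 to 0.25 for Wrn and -0.000662 to 0.21 for Xrcc4. Depth limits the genes with few reads, such as Rad51c (33 to 140 per library) and Fancd2 (43 to 157).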
